A study of Mus musculus with 26 samples.

Results

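Islet macrophages of 4-week-old female NOD/ShiLtJ (NOD) mice were compared with those of 4-week-old female C57BL/6J (B6) mice across all genes. The comparison rests on 8 of the 26 libraries of the series, 4 from each strain, taken by strain and age from the sample titles, and on 40558 genes. NOD mice develop autoimmune diabetes spontaneously and B6 mice do not. The labels name no transgene and no treatment in either group. Each library came from islet cells of 6 to 14 mice pooled, dispersed without enzymes for 5 min at 37 °C and sorted as live CD45+ F4/80+ CD11c+ cells lacking B220 and CD90, and the RNA was amplified before sequencing. The labels do not say that replicates had separate origins beyond these pools, so the p-values below measure the spread between these libraries. The other libraries, of NOD at 2, 8 and 12 weeks and B6 at 2 and 12 weeks, were used where the strain difference is set against other ages.

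Macrophages are the main resident immune cells of the islet, where they lie beside endocrine cells and blood vessels, take up insulin granules and peptides, and carry them on MHC class II molecules to CD4 T cells. Class II chains are assembled with the invariant chain (Cd74), loaded with peptide with the help of the DM and DO molecules, and transcribed together under the coactivator CIITA acting on conserved promoter elements. Immediate early genes and heat shock genes respond within minutes to growth factors, inflammation, heat or the handling of cells, so their levels in sorted cells depend on the tissue and on its preparation.

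Total counts ran from 11364167 to 12725828 in NOD and from 9752680 to 11349106 in B6. The libraries of the strains differed in how many genes they held. NOD replicates 1 to 4 had at least 1 count for 21888, 21356, 22079 and 18974 genes, and B6 replicates 1 to 4 for 17690, 14895, 14152 and 17839 genes. The groups did not overlap, and their means differed by 4930.25 genes (two-sided exact permutation test, p = 0.0286, the smallest that 4 against 4 libraries can give). After thinning to the smallest total the difference was 4560 genes (the same exact permutation test, p = 0.0286). The mean Spearman correlation of a library with the others of its group, across genes, which are not independent replicates, was 0.948 to 0.962 in NOD and 0.708 to 0.745 in B6, and 93.9% of genes had a larger SD in B6. The part of these differences in the results below was not tested. Xist had 88908 counts in NOD and 86657 in B6 in total, and Y-linked genes at most 5 per group, so the libraries matched the labelled sex. Ptprc, Adgre1 and Itgax encode the CD45, F4/80 and CD11c of the sort gate, and their levels are not treated as findings.

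**Figure D1:**
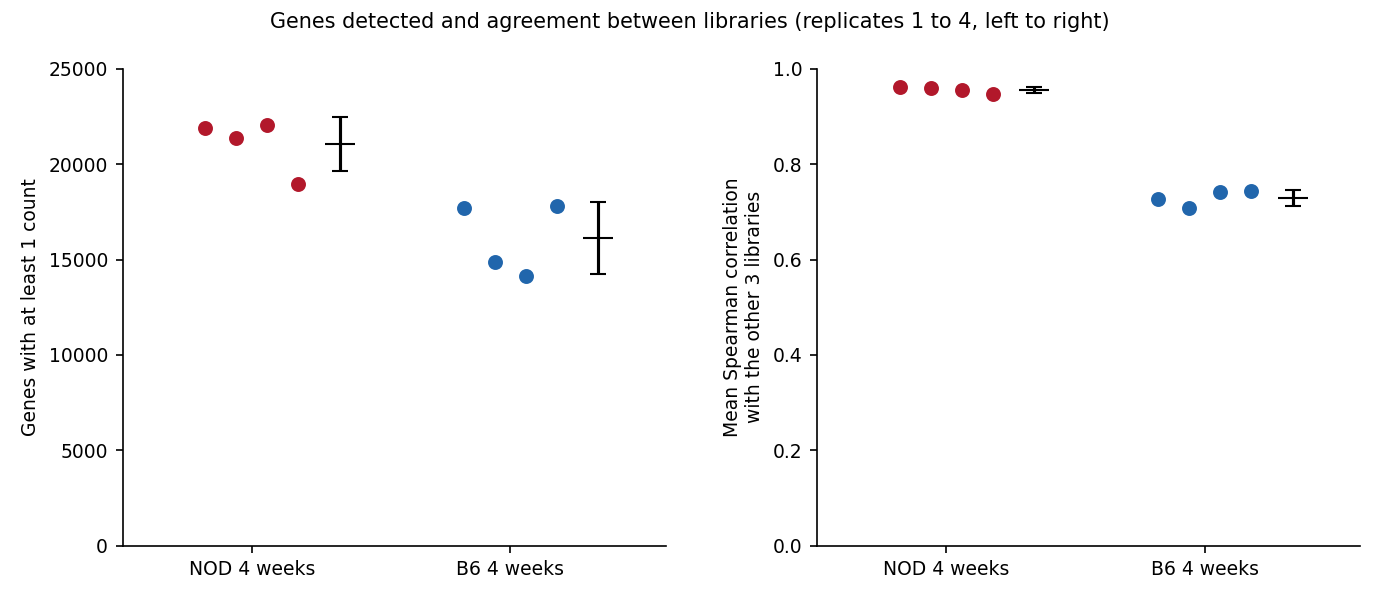
Genes with at least 1 count (left) and mean Spearman correlation of each library with the other 3 of its group (right), 1 point per library, with the group mean ± SD beside the points. The 4 B6 libraries lie at 14152 to 17839 genes, below the lowest NOD library at 18974, and at correlations of 0.708 to 0.745.

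Of 12285 genes that passed the expression filter, 742 differed between the strains, 272 higher and 470 lower in NOD, when the 8 libraries were fitted alone (edgeR quasi-likelihood test, Benjamini-Hochberg adjusted p under 0.05, written adjusted p throughout). That is a background of 6.04% of genes called, 2.21% higher and 3.83% lower. In all, 2239 genes (18.2%) had groups that did not overlap. Among them were 269 of the 272 higher and 447 of the 470 lower calls, so a lack of overlap below adds little to a call. A fit of all 26 libraries called 3450 of 19703 genes (17.5%), 1710 higher (8.68%) and 1740 lower (8.83%), and held 741 of the 742, all in the same direction. The split between higher and lower calls depended on the scaling and on the filter: it was 273 and 526 with RLE size factors, 290 and 205 with upper-quartile scaling, 106 and 342 with no expression filter, and 122 and 172 with a loess scaling fitted by level (added after seeing the data). The median log2 fold change over all tested genes moved with it, from -0.12 to 0.14 with upper-quartile and -0.41 with loess scaling. Omitting NOD replicate 1, 2, 3 or 4 left 201, 237, 200 or 293 calls, and omitting B6 replicate 1, 2, 3 or 4 gave 998, 978, 1103 or 1133. No gene called in both the full set and any of these fits changed direction.

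The direction of the difference varied with the level of the gene under TMM scaling. Of 4896 tested genes under 10 CPM (counts per 1000000 of the TMM-scaled library), 180 were higher and 5 lower in NOD. Of 5928 genes between 10 and 100 CPM, 60 were higher and 134 lower. Of 1461 genes above 100 CPM, 32 were higher and 331 lower, or 24.8% called. Shares of lists of highly expressed genes below stand beside this share as well as the 6.04% of all genes. With loess scaling these counts became 5 and 9, 51 and 83, and 66 and 80. The median log2 fold change in these 3 classes was 0.35, -0.20 and -0.45 with TMM scaling and -1.04, -0.28 and -0.06 with loess scaling, so that its order by level was turned. Of the 272 higher genes, 143 (52.6%) had 0 counts in at least 2 B6 libraries, against 8.79% of all tested genes, and 30 had 0 counts in all 4. Of the 470 lower genes, 2 (0.426%) had 0 counts in at least 2 NOD libraries, against 0.13% of all tested genes.

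**Figure D2:**
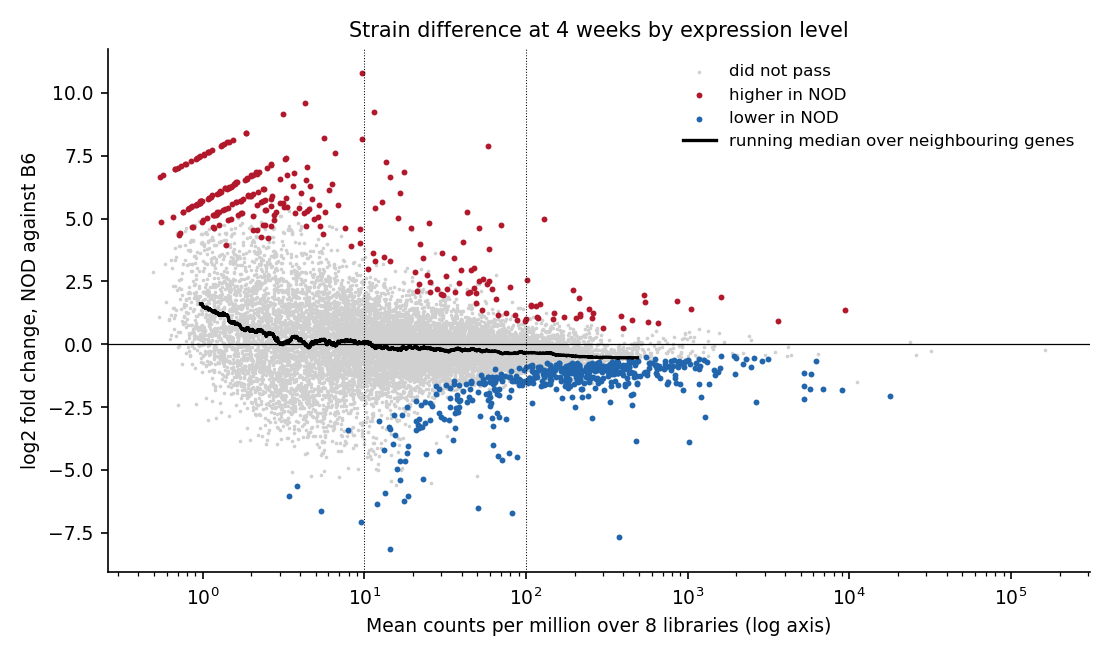
The log2 fold change of NOD against B6 for 12285 tested genes against their mean level over 8 libraries on a log axis, with genes called higher and lower in color, dotted lines at 10 and 100 CPM and the running median over neighbouring genes in black. Most genes called higher lie under 10 CPM (180 of 272), and most called lower lie above 100 CPM (331 of 470).

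The largest group difference among antigen presentation genes was in MHC class II. Of 17 genes of class II presentation, all of which were tested, 8 were lower and 0 higher in NOD. That is 47.1%, against 6.04% of all genes and 24.8% of those above 100 CPM. The median log2 fold change was -1.04 against -0.12 over all genes. The lower genes were 3 of the 4 class II chain genes listed (H2-Aa, H2-Ab1 and H2-Eb1), the invariant chain Cd74, 3 of 5 subunits of DM and DO (H2-DMa, H2-Oa and H2-Ob) and the protease gene Lgmn. The 4 regulators did not pass. Promoters are shown for the 4 lower genes whose promoter holds the Y box, an element bound by the factor NF-Y. H2-Aa, H2-Eb1, H2-Ob and H2-Oa lie on chromosome 17, and the 150 bases before each transcription start are printed 5′ to 3′ on the strand of the gene, from RefSeq's GRCm38.p6 annotation, with the Y box core TGATTGG and the X box core CTAGCAAC in capitals. The first stretch is chr17:34287824-34287973 on the minus strand. The others are on the plus strand, at chr17:34305717-34305866, chr17:34238755-34238904 and chr17:34092229-34092378.
H2-Aa: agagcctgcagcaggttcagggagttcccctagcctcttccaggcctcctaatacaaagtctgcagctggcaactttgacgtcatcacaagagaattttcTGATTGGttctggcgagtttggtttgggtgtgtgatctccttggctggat
H2-Eb1: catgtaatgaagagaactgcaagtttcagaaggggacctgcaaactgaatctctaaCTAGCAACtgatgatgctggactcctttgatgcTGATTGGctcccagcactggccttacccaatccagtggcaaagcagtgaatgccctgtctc
H2-Ob: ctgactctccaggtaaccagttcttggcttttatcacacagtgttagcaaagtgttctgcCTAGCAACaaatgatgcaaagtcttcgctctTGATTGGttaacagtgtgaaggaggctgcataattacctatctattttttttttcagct
H2-Oa: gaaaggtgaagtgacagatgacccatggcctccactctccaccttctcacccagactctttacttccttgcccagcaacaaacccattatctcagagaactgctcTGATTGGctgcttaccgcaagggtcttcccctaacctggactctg

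The Y box began 50, 61, 59 and 45 bases before the start in H2-Aa, H2-Eb1, H2-Ob and H2-Oa, and the X box began 94 and 90 bases before it in H2-Eb1 and H2-Ob. Searched on both strands over 250 bases before the start, TGATTGG was in 8 of the 13 class II presentation genes with a promoter in the table (61.5%) and in 8.38% of 27025 genes, and CTAGCAAC was in 3 of 13 (23.1%) and in 1.33%. TGATTGG was in 11.2% of tested genes, 9.64% of those lower in NOD and 12.7% of those higher. It was also in 4 of 12 heat shock and chaperone genes (33.3%), Hspa1a and Hspa1b among them. The lower genes H2-DMa and Lgmn held neither box, while H2-Eb2, H2-DMb1, H2-DMb2 and Rfx5, which did not pass, held the Y box. Cd74, H2-Ab1, Ciita and Rfxap were not among the promoters searched. A match describes these letters only.

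The invariant chain Cd74 stood at 6856, 6778, 7166 and 7090 CPM in NOD replicates 1 to 4 and at 24325, 27462, 38049 and 25832 CPM in the B6 replicates, a log2 fold change of -2.05 ± 0.14 (SE; adjusted p = 1.87e-05). H2-Ab1, the beta chain of I-A, was at 2998, 3549, 3276 and 2619 CPM in NOD and 10236, 10949, 13011 and 8572 CPM in B6 (-1.78 ± 0.147, adjusted p = 3.81e-05). H2-Aa, its alpha chain, was at 3429, 4037, 4141 and 2554 CPM in NOD and 6742, 7663, 10520 and 7577 CPM in B6 (-1.20 ± 0.177, adjusted p = 0.00246). For each of these genes all NOD libraries lay below all B6 libraries, and B6 replicate 3 was the highest. H2-Eb1, the beta chain of I-E, was at 2123 to 3069 CPM in NOD and 7578 to 11471 CPM in B6 (-1.78 ± 0.164, adjusted p = 8.12e-05), again without overlap. H2-Eb2, the other chain gene listed, was at 9.71 to 15.0 CPM in NOD and 6.03 to 72.6 CPM in B6 and did not pass (adjusted p = 0.279).

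DM removes the invariant chain peptide and DO restrains DM. H2-Ob, the beta subunit of DO, was at 5.34, 5.07, 13.7 and 5.11 CPM in NOD and 52.9, 68.6, 54.9 and 61.2 CPM in B6, a log2 fold change of -3.02 ± 0.494 (adjusted p = 0.00447). Its partner H2-Oa was at 1.65 to 6.63 CPM in NOD and 9.30 to 89.7 CPM in B6 (-3.30 ± 0.767, adjusted p = 0.0259), and B6 replicate 1 was close to the highest NOD library. The call of H2-Oa was lost without any 1 NOD library, without B6 replicate 3 and with the replicate block. H2-DMa, the alpha subunit of DM, was at 197 to 301 CPM in NOD and 406 to 933 CPM in B6 (-1.32 ± 0.243, adjusted p = 0.00895). The beta subunit genes did not pass: H2-DMb1 was at 193 to 283 CPM in NOD and 314 to 409 CPM in B6, without overlap (adjusted p = 0.0742), and H2-DMb2 at 36.5 to 48.8 and 0.585 to 54.6 CPM (adjusted p = 0.51).

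Among the proteases and reductase that prepare peptides, Lgmn (legumain) had a small difference, with 1510 to 1746 CPM in NOD and 2115 to 2330 CPM in B6 (-0.47 ± 0.111, adjusted p = 0.0278). The call was lost without any 1 NOD library, and the value turned to 0.20 with loess scaling. Ctss, which trims the invariant chain, was at 542 to 1050 CPM in NOD and 1072 to 1605 CPM in B6 and did not pass (adjusted p = 0.0942). The reductase gene Ifi30 was at 288 to 332 and 207 to 352 CPM, with overlapping groups (adjusted p = 0.748). The coactivator gene Ciita was at 88.5, 96.6, 126 and 136 CPM in NOD and 93.5, 214, 146 and 226 CPM in B6 (-0.60 ± 0.29, adjusted p = 0.291), and Rfx5, Rfxap and Rfxank, which encode the X box factor, had adjusted p of 0.683, 0.737 and 0.828. All 4 regulators overlapped between the strains.

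The summed level of the 17 genes was 17575 to 21232 CPM in NOD and 53916 to 78821 CPM in B6. The count of lower members was 6 to 10 with single libraries omitted, 6 with the islet covariate described below, 7 with upper-quartile and 5 with loess scaling, where H2-Aa (-0.44, adjusted p = 0.212), H2-DMa (-0.85, adjusted p = 0.116) and Lgmn no longer passed. Fewer class II-rich cells and less of these RNAs per cell cannot be told apart in whole populations. NOD and B6 carry different class II alleles, and the reference named by the submitters is of C57BL/6J. Whether the alignment allowed for strain variants is not given in the sources used here. The part of either in these values was not tested.

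**Figure D3:**
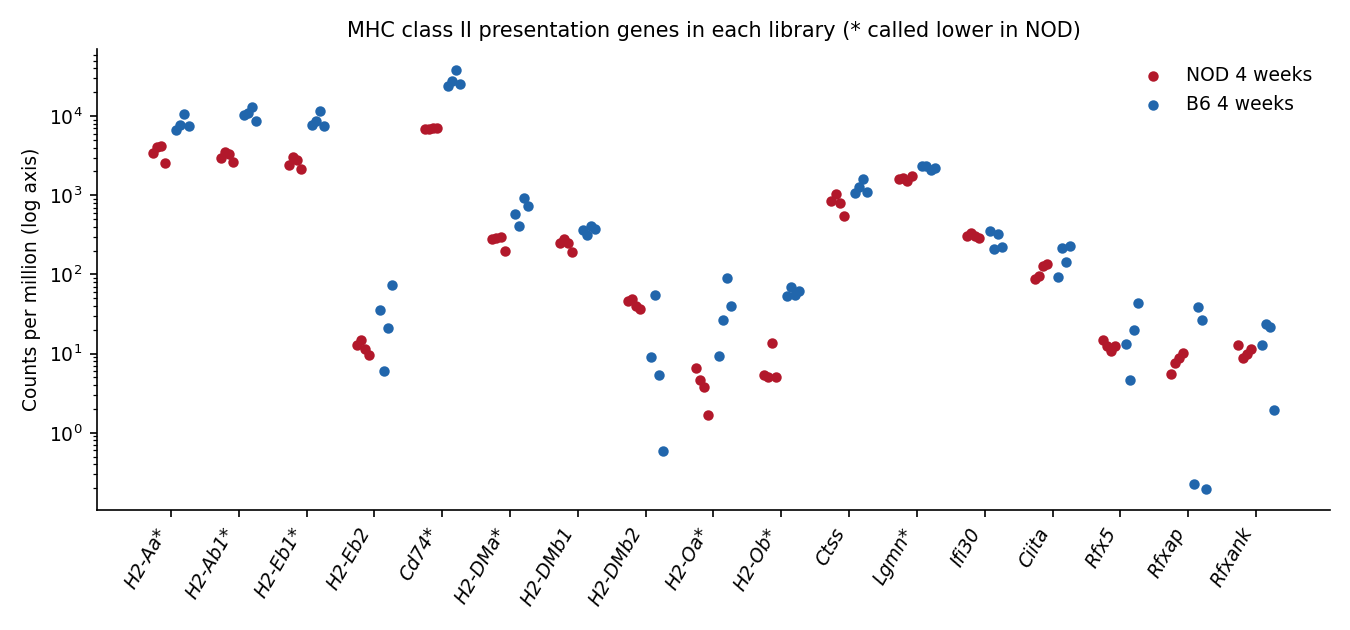
Level of each of 17 MHC class II presentation genes in every library, in CPM on a log axis, with NOD replicates left and B6 replicates right of each gene. An asterisk marks the 8 genes called lower in NOD. For Cd74 the NOD libraries lie at 6778 to 7166 CPM and the B6 libraries at 24325 to 38049 CPM.

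Class I presentation differed less. Of 17 tested genes 3 were lower and 1 higher in NOD (23.5%, with a median of -0.52). The share over all genes was 6.04%, and over those above 100 CPM 24.8%. B2m, the light chain of class I, was at 3452, 3932, 3053 and 2500 CPM in NOD and 6885, 6382, 8669 and 6992 CPM in B6 (-1.16 ± 0.153, adjusted p = 0.00115), and the heavy chain gene H2-D1 was at 438 to 550 and 809 to 1010 CPM (-0.90 ± 0.143, adjusted p = 0.00374). Psme1, a proteasome activator subunit, was lower (-1.16 ± 0.25, adjusted p = 0.0195). Psmb8, an immunoproteasome subunit, was higher, at 130, 150, 117 and 78.8 CPM in NOD and 34.9, 53.5, 48.6 and 72.5 CPM in B6 (1.18 ± 0.307, adjusted p = 0.042), with NOD replicate 4 close to B6 replicate 4. The 3 lower calls became 0 with loess scaling, where B2m was -0.42 (adjusted p = 0.174), and 5 without B6 replicate 2 or 4. Psme1 and Psmb8 no longer passed without any 1 of the NOD replicates and Psmb8 also not without B6 replicate 1 or 3.

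Interferon-stimulated genes were called in both directions. Of 26 tested type I interferon-stimulated genes, 2 were lower and 0 higher (7.69%, against 6.04% of all genes), with a median of -0.90 and 10 at an unadjusted p under 0.05. Oasl2, a relative of the antiviral oligoadenylate synthetases, was at 67.7 to 104 CPM in NOD and 167 to 276 CPM in B6 (-1.31 ± 0.228, adjusted p = 0.00692), and Oas2 at 57.1 to 63.7 and 96.0 to 300.2 CPM (-1.64 ± 0.311, adjusted p = 0.0105). Both had groups that did not overlap. Of 21 tested interferon-gamma response genes, 1 was higher and 3 lower (19%, against 6.04% of all genes). Gbp2, a guanylate-binding protein, was higher at 16.6, 23, 26.9 and 18.1 CPM in NOD and 3.40, 3.25, 0.420 and 1.37 CPM in B6 (3.32 ± 0.86, adjusted p = 0.0413), and this call was lost in 11 of 21 alternatives, among them the omission of any 1 NOD library, the replicate block and loess scaling. The GTPase gene Irgm2 (-2.30 ± 0.434), the receptor chain gene Ifngr2 (-1.02 ± 0.244) and Fcgr4 (-1.14 ± 0.268) were lower, and their calls fell to 0 without NOD replicate 1 or 2 and to 1 without NOD replicate 3 or 4. DESeq2 called 7 type I genes lower, and omission of B6 replicate 2 gave 4. With the islet covariate described below no member of either list was called.

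Receptors for antibody and debris changed in both directions. Of 21 tested Fc and scavenger receptor genes, 7 were lower and 3 higher in NOD (47.6%, against 6.04% of all genes), with a median of -0.68. Fcer1g, the signalling chain shared by activating Fc receptors, was at 504, 501, 450 and 401 CPM in NOD and 2147, 1955, 2185 and 1565 CPM in B6 (-2.08 ± 0.15, adjusted p = 1.87e-05). Fcgr3, a low-affinity IgG receptor that needs that chain, was at 176, 192, 221 and 194 CPM in NOD and 620, 585, 712 and 591 CPM in B6 (-1.68 ± 0.154, adjusted p = 8.12e-05). The high-affinity IgG receptor gene Fcgr1 went the other way, at 577, 585, 536 and 444 CPM in NOD and 289, 213, 203 and 266 CPM in B6 (1.14 ± 0.175, adjusted p = 0.00291). The strains did not overlap for any of these receptors. Stab1, a scavenger receptor, was lower, at 361 to 566 CPM in NOD and 1082 to 1689 CPM in B6 (-1.58 ± 0.197, adjusted p = 0.000884). Msr1, the class A scavenger receptor, was higher at 33.9 to 48.4 CPM in NOD and 0.840 to 6.83 CPM in B6 (3.99 ± 0.761, adjusted p = 0.0109). The third higher receptor was Colec12, described with the largest differences. The 7 lower calls became 3 or 4 when any 1 NOD library was omitted and 3 with loess or upper-quartile scaling, with Fcer1g, Fcgr3 and Stab1 called in every alternative.

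Genes of macrophage identity held smaller differences. Of 25 tested core macrophage genes, 6 were lower and 0 higher (24%, against 6.04% of all genes). The mean log2 CPM of the list was 8.15 to 8.42 over the 8 libraries. Of all genes above 100 CPM 24.8% were called, with a median of -0.45, so the share was near that of genes at this level. The median of the list was -0.42 but 0.17 with loess scaling, where 1 was lower and 2 higher. Runx1, a hematopoietic transcription factor, was at 463 to 522 CPM in NOD and 882 to 1488 CPM in B6 (-1.22 ± 0.168, adjusted p = 0.00148). Spi1, which encodes PU.1, was at 191 to 249 and 381 to 674 CPM (-1.12 ± 0.203, adjusted p = 0.00827). Tlr2, a receptor for bacterial lipoproteins, had the same adjusted p (-1.25 ± 0.227). Csf1r, the receptor for the macrophage growth factor, was at 1813 to 2386 CPM in NOD and 2712 to 3562 CPM in B6 (-0.56 ± 0.132, adjusted p = 0.0267), but 0.13 with loess scaling. Without NOD replicate 1 or 3 the 6 lower calls became 3 or 2.

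Immediate early genes held the most lower calls of any list. Of 36 tested members 19 were lower and 1 was higher in NOD, with a median of -1.07. That is 55.6%, against 6.04% of all genes and 24.8% of those above 100 CPM. By role the lower genes were 6 of 8 AP-1 and ATF factors, 4 of 7 zinc finger factors, 2 of 3 nuclear receptors of the Nr4a family, 5 of 14 feedback regulators and 2 of 4 others. The higher gene was the antiproliferative regulator Btg1 (0.99 ± 0.23, adjusted p = 0.0257), whose call was lost without any 1 NOD library. Egr1, a zinc finger factor, was at 1900, 2444, 1596 and 1659 CPM in NOD and 7265, 9601, 6211 and 11218 CPM in B6 (-2.17 ± 0.20, adjusted p = 8.12e-05). Atf3, a stress-induced repressor, was at 982, 1179, 717 and 691 CPM in NOD and 3274, 6076, 3198 and 4974 CPM in B6 (-2.30 ± 0.241, adjusted p = 0.000224). In both, NOD replicates 3 and 4 were below NOD replicates 1 and 2, and every NOD library was below every B6 library.

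Klf2, a zinc finger factor that quiets inflammatory genes, was at 14.2 to 21.1 CPM in NOD and 91.8 to 141 CPM in B6 (-2.74 ± 0.304, adjusted p = 0.000355). Zfp36, which encodes the mRNA decay factor tristetraprolin, was at 2107 to 3109 CPM in NOD and 6972 to 9465 CPM in B6 (-1.67 ± 0.15, adjusted p = 7.52e-05). Dusp1, a phosphatase that ends MAP kinase signalling, was at 381 to 517 and 978 to 1619 CPM (-1.52 ± 0.184, adjusted p = 0.000733). None of these genes overlapped between strains. Chosen after their values were seen, the AP-1 genes Jun (-1.56), Junb (-1.50), Fosb (-1.58) and Fos were lower as well, while Ier2 was called lower although its groups overlapped. Nfkbia, the feedback inhibitor of NF-kappa B, did not pass (-0.98, adjusted p = 0.0631).

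The summed level of immediate early genes was 9461 to 13274 CPM in NOD and 26598 to 41761 CPM in B6. The 19 lower calls became 14 to 20 with single libraries omitted, 14 with upper-quartile scaling, 11 with loess scaling (medians -0.79 and -0.82) and 6 with the islet covariate. Zfp36, Egr1, Atf3, Klf2 and Dusp1 were called in all 21 alternatives.

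Heat shock genes had a similar share of lower calls. Of 17 tested heat shock and chaperone genes 8 were lower, 4 of the 5 genes of the HSP70 family among them, and 0 higher (median -0.90). That is 47.1%, against 6.04% of all genes and 24.8% of those above 100 CPM. Their control element is shown in the promoters of Hspa1a and Hspa1b, the stress-inducible HSP70 genes, which lie near each other on chromosome 17 on the minus strand. The 150 bases before each start (RefSeq, GRCm38.p6) span chr17:34972157-34972306 and chr17:34959239-34959388, with the heat shock element in capitals.
Hspa1a: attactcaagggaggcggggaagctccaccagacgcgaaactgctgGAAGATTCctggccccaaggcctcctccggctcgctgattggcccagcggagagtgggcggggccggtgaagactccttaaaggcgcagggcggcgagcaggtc
Hspa1b: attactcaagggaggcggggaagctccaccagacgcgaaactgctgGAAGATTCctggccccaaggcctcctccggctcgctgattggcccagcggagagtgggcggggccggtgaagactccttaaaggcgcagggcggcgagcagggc

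The element began 104 bases before the start in both, and the promoters differed at 3 of 250 bases. Reads of the near-identical pair can be split between them by the counting, so the level of each is uncertain. Searched over 250 bases on both strands, GAANNTTC or TTCNNGAA (motifs that can overlap) was in 8 of the 12 heat shock and chaperone genes with a promoter in the table (66.7%), in 14.5% of 27025 genes, in 12.3% of tested genes, in 16.5% of those lower in NOD and in 14% of those higher. The lower genes Dnajb1, Bag3 and Hspa5 held neither motif, while Dnaja1, Dnajb4, Hspd1, Hspe1 and Hspb1, which were not called, held at least one form. At least one form was also in 5 of the 13 class II presentation genes with a promoter (38.5%), H2-Aa and H2-Oa among them. Hspa8 and Hsp90ab1 were not among the promoters searched. A match describes these letters only.

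Hspa1b was at 193, 208, 221 and 194 CPM in NOD and 736, 882, 339 and 504 CPM in B6 (-1.59 ± 0.256, adjusted p = 0.0042). Hspa1a was at 279, 291, 237 and 175 CPM in NOD and 642, 642, 381 and 461 CPM in B6 (-1.11 ± 0.222, adjusted p = 0.0137), which did not pass in the fit of all 26 libraries (adjusted p = 0.0896). Hspa8, the constitutive HSP70, was at 283 to 448 CPM in NOD and 799 to 1444 CPM in B6 (-1.60 ± 0.222, adjusted p = 0.00161). The strains were apart in each, with B6 replicate 3 the lowest of B6. Dnajb1, the HSP40 cochaperone of HSP70, was at 117 to 146 and 359 to 609 CPM (-1.81 ± 0.207, adjusted p = 0.000436). Bag3, a cochaperone of selective autophagy, was at 67.5 to 99.8 and 220 to 630 CPM (-2.11 ± 0.322, adjusted p = 0.00291). Hsp90ab1, the constitutive HSP90, was lower by less (-0.88 ± 0.153, adjusted p = 0.00657). Hsp90b1, the HSP90 of the endoplasmic reticulum, was at 473 to 525 CPM in NOD and 209 to 446 CPM in B6 and did not pass (0.59, adjusted p = 0.15). The gene of the heat shock factor Hsf1 was at 25.9 to 34.5 CPM in NOD and 1.45 to 104 CPM in B6 (adjusted p = 0.938). The 8 lower calls became 5 without NOD replicate 1, 3 or 4 and with upper-quartile scaling, 4 with loess scaling and 0 with the islet covariate.

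**Figure D4:**
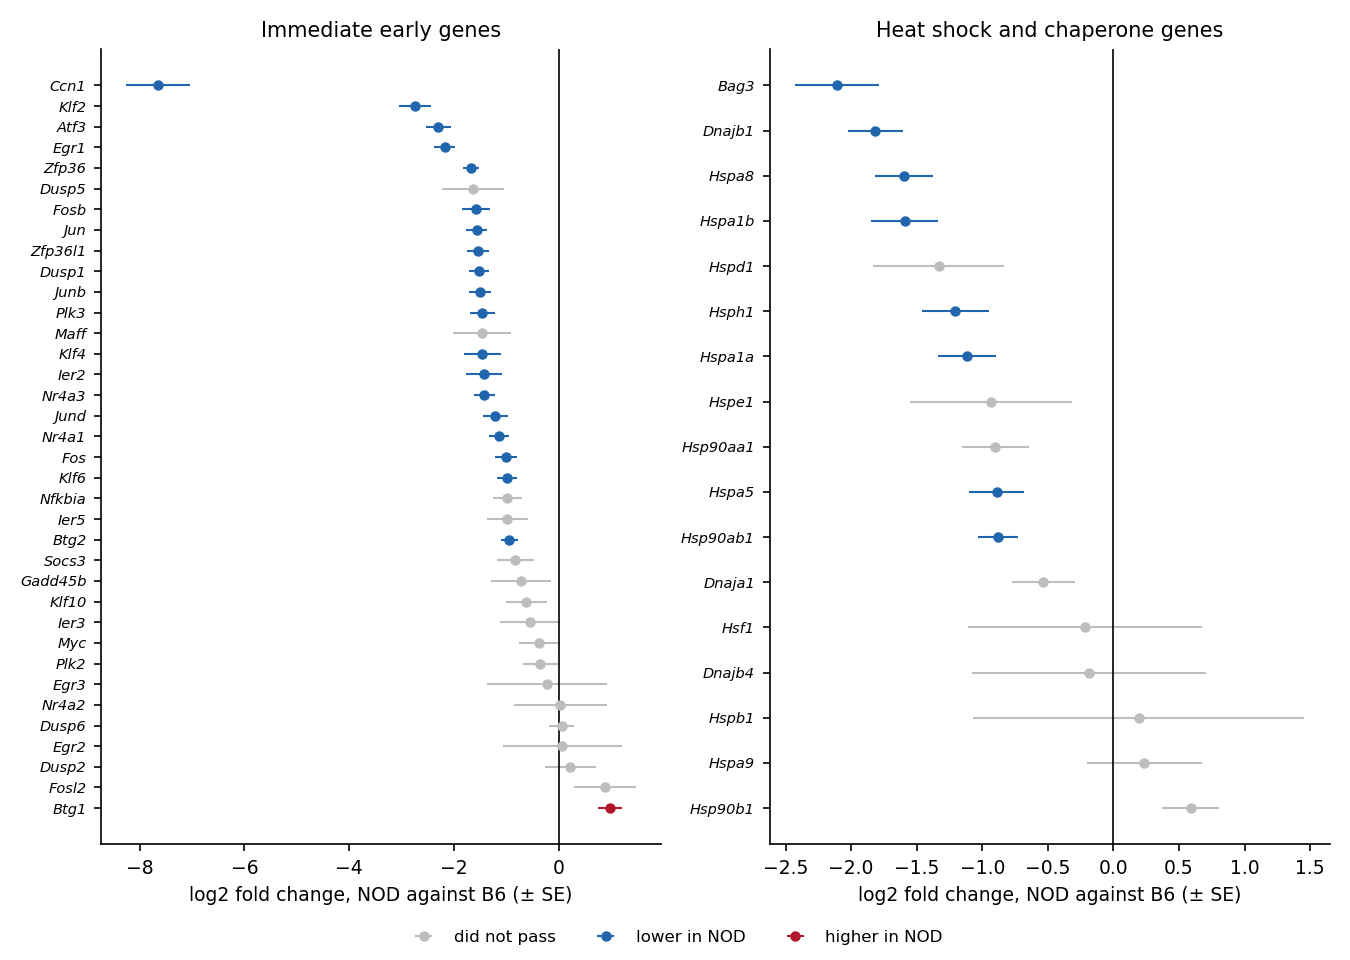
The log2 fold change of NOD against B6 ± SE for the 36 tested immediate early genes (left) and the 17 tested heat shock and chaperone genes (right), sorted by value. Among immediate early genes 19 are called lower (blue) and Btg1 higher (red), and among heat shock genes 8 are called lower. Gray genes did not pass.

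Some genes of inflammatory signalling were lower as well, 2 of them listed as antagonists or inhibitors. Of 32 tested inflammatory cytokine and signalling genes 6 were lower and 1 higher (21.9%, against 6.04% of all genes, with a median of -0.70). Nlrp3, the sensor of the inflammasome, was at 133, 158, 99.8 and 121 CPM in NOD and 477, 376, 251 and 350 CPM in B6 (-1.51 ± 0.229, adjusted p = 0.00281). Tgfb1 was at 406 to 472 and 799 to 923 CPM (-0.96 ± 0.134, adjusted p = 0.00161). Il1a, an alarmin cytokine, was at 147 to 339 CPM in NOD and 409 to 735 CPM in B6 (-1.35 ± 0.296, adjusted p = 0.0205). The NF-kappa B regulators Nfkbiz (-1.34 ± 0.254) and Tnfaip3 (-1.64 ± 0.363) and the receptor gene Il10ra (-0.97 ± 0.216) made up the rest, and none of the 6 overlapped. The higher gene was the interleukin-1 antagonist Il1rn (3.43 ± 0.808, adjusted p = 0.0273), whose call was lost without any 1 NOD library and without B6 replicate 3. The lower calls became 2 and 3 without NOD replicate 3 and 4, 10 without B6 replicate 1, 3 with upper-quartile and 1 with loess scaling, and 0 with the islet covariate.

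Of 29 tested chemokine and receptor genes 4 were lower and 2 higher (20.7%, against 6.04% of all genes). The median of -0.08 turned to 0.19 and 0.08 with upper-quartile and loess scaling. Ccl3, a chemokine of activated macrophages, was at 205, 284, 130 and 129 CPM in NOD and 629, 762, 755 and 781 CPM in B6 (-1.97 ± 0.25, adjusted p = 0.00093). Cxcl14 was higher, at 332, 360, 276 and 319 CPM in NOD and 21.0, 98.7, 99.5 and 65.3 CPM in B6 (2.18 ± 0.387, adjusted p = 0.00737). Cxcr4, the receptor for Cxcl12, was at 108 to 188 and 252 to 399 CPM (-1.28 ± 0.228, adjusted p = 0.00741). The strains were apart for all 3. Cmklr1 (-0.76, adjusted p = 0.0273) and Cxcl16 (-0.60, adjusted p = 0.00966) were lower by less, and Cxcl16 was 0.08 with loess scaling. Cmklr1 no longer passed without any 1 NOD library. Of 13 tested costimulation genes, Cd80 was higher, at 3.71 to 6.07 CPM in NOD against 0 to 0.210 CPM in B6, which had 3 counts in all (ratio 57.4, 95% counting interval 19.4 to 280, adjusted p = 0.0282). This call was lost without any 1 NOD library, with the replicate block, the islet covariate and loess scaling, and with no filter. The B cell survival factor Tnfsf13b was lower, at 26.7 to 36.3 against 96.2 to 114 CPM (-1.78 ± 0.274, adjusted p = 0.00291).

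Lipid and lysosomal genes went both ways. Of 32 tested members 4 were lower and 3 higher (21.9%, against 6.04% of all genes). The mean log2 CPM of the list was 6.45 to 7.21, and its share was near the 24.8% called of all genes above 100 CPM. The median of -0.01 became 0.38 and 0.26 with loess and upper-quartile scaling. Apoe, the lipid carrier that macrophages secrete, was at 3860, 3804, 3899 and 4406 CPM in NOD and 14278, 12740, 18525 and 11046 CPM in B6 (-1.83 ± 0.152, adjusted p = 4e-05). The lysosomal protease Ctsd was higher, at 814 to 928 CPM in NOD and 343 to 602 CPM in B6 (0.87 ± 0.174, adjusted p = 0.0143), while Ctsb was lower (-0.67, adjusted p = 0.0282; 0.04 with loess scaling). The lectin gene Lgals1 was higher, at 194 to 242 and 57.2 to 127 CPM (1.25 ± 0.252, adjusted p = 0.0143). Groups were apart in all of these. The scavenger receptor Cd36, listed here and above, was at 32.8 to 59.6 CPM in NOD and 99.1 to 175 CPM in B6 (-1.43 ± 0.308, adjusted p = 0.0192). The calls of Cd36 and Ctsb were lost without any 1 NOD library, and that of Lgals1 without NOD replicate 1, 2 or 3. Without NOD replicate 1 or 3 the lower calls became 1 in each, and the higher calls 1 and 0.

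Of 13 tested complement genes, C3 was higher, at 56.7, 140, 119 and 56.5 CPM in NOD and 6.46, 32.9, 8.72 and 13.6 CPM in B6 (2.59 ± 0.555, adjusted p = 0.019). Of 23 tested growth factor and matrix genes 4 were lower and 0 higher (17.4%, against 6.04% of all genes). Thbs1, which encodes the matrix protein thrombospondin, was at 14.1 to 17.0 CPM in NOD and 55.5 to 189 CPM in B6 (-2.89 ± 0.436, adjusted p = 0.00281), Pdgfb was lower (-1.02, adjusted p = 0.0205), and Tgfb1 and Ccn1 were the others. Both upper-quartile and loess scaling called 2 members of this list higher.

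Shares of genes called differed between metabolic and growth lists. Of 36 tested oxidative phosphorylation genes 2 were lower (Cox6a1, -0.85, and Atp5h, -1.50) and 0 higher (5.56%, near the 6.04% of all genes), with a median of 0.76, and the fit of all 26 libraries called 10 higher and 3 lower. Of 20 tested glycolysis genes 3 were lower (15%, against 6.04% of all genes). They were led by the regulator Pfkfb3 at 105 to 128 CPM in NOD and 234 to 422 CPM in B6 (-1.47 ± 0.21, adjusted p = 0.002). Of 23 tested cholesterol synthesis genes 0 passed in either direction in the edgeR fit of 8 libraries, with 4 at an unadjusted p under 0.05 and a median of 0.60 that was -0.01 with loess scaling. The fit of 26 libraries called 5 of them higher and 2 lower, DESeq2 called 1 each way, and omission of B6 replicate 4 gave 2 higher and 1 lower. Of 35 tested cell cycle genes 1 was higher (Top2a, 2.24, adjusted p = 0.0381) and 1 lower (Pcna, -1.34, adjusted p = 0.0362), or 5.71%, with 5 higher without B6 replicate 2 or 4. The calls of Cox6a1, Atp5h, Top2a and Pcna were lost without any 1 NOD library. Of 26 tested ribosomal protein genes 5 were lower and 1 higher (23.1%, against 6.04% of all genes). Rps2 was at 9.94 to 12.8 CPM in NOD and 46.5 to 165 CPM in B6 (-3.26 ± 0.409, adjusted p = 0.000884), and ribosomal protein genes have near-identical pseudogene copies, so these levels are uncertain. Of 7 tested genes of the mitochondrial genome and 8 tested markers of alternatively activated or perivascular macrophages 0 passed in the edgeR fit of 8 libraries, with 3 and 0 at an unadjusted p under 0.05. Loess scaling called 4 of the mitochondrial genes higher, upper-quartile scaling, no filter and omission of NOD replicate 4 called 1 higher, and RLE scaling and DESeq2 called 1 lower. For the alternatively activated list the fit of 26 libraries, which tested 17 members, called 3 higher and 1 lower, and omission of B6 replicate 1 or 4 gave 1 higher.

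The largest rises, picked among genes with a mean of at least 5 CPM in NOD and no overlap, were mostly genes near 0 in B6. Colec12, a scavenger receptor of the collectin family, had 1069 counts in NOD and 0 in B6 and was at least 238-fold higher, taking 3 counts over the B6 group as its floor (adjusted p = 0.00281), and Gas8, a subunit of the dynein regulatory complex that overlaps another gene model, was at least 77.2-fold higher (adjusted p = 0.0169). Ccr6, the receptor for Ccl20, had 1262 counts in NOD and 1 in B6, a ratio of 843 (95% counting interval 151 to 33306, adjusted p = 0.00101). St6galnac1, a sialyltransferase, had 625 counts and 1 count, a ratio of 417 (74.6 to 16508, adjusted p = 0.0074). These genes stood at 15.6 to 21.9, 3.87 to 10.3, 20.7 to 25.4 and 5.81 to 17.0 CPM in the NOD libraries in that order, and none exceeded 0.113 CPM in a B6 library. The others of the 12 largest rises were the proton pump subunit Atp6v0e2 (ratio 243, 67.0 to 2011), the secreted glycoprotein gene Lgi4 (165, 45.5 to 1368), the SOCS box gene Spsb3 (196, 34.8 to 7753), the lysosomal transporter Abcd4 (121, 33.2 to 1002) and the centriole kinase Plk4 (111, 30.4 to 919). With near-identical copies and so uncertain levels, H2-Q2 (238, 42.5 to 9441), Zfp979 (135, 37.1 to 1117) and Ifi202b (log2 fold change 7.25 ± 0.91, adjusted p = 0.000884) complete them. Calls of 7 of these 12 genes (Gas8, Lgi4, Spsb3, Abcd4, Plk4, H2-Q2 and Zfp979) were lost without any 1 NOD library, with loess scaling and with the islet covariate. The intervals and the floor of 3 counts hold counting error only.

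The largest falls were picked among genes with a mean of at least 5 CPM in B6 and no overlap, so their levels in B6 and their separation follow in part from that choice. Spint1, which encodes a serine protease inhibitor of the cell membrane, was at 3.07, 0.601, 2.00 and 0.575 CPM in NOD and 162, 227, 167 and 90.9 CPM in B6 (-6.69 ± 0.611, adjusted p = 8.12e-05). Ccn1, a secreted matrix-associated protein, was at 2.18, 2.00, 2.14 and 8.63 CPM in NOD and 548, 1017, 394 and 1054 CPM in B6 (-7.65 ± 0.604, adjusted p = 3.22e-05). The receptor tyrosine kinase gene Epha2 was at 1.08 to 8.88 and 47.9 to 206 CPM (-4.62 ± 0.672, adjusted p = 0.00224). In all 3 the lowest B6 library was above the highest NOD library, which the choice required. Vill, a villin-like actin-binding protein (-8.13 ± 1.08), Btbd11 (-6.05 ± 0.775), Cacna2d1, a calcium channel subunit (-6.05 ± 1.49), Hepacam2, an adhesion molecule (-5.38 ± 0.876), and the peptide transporter Slc15a2 (-4.65 ± 0.933) followed. Trim12a (-7.09 ± 1.18), Ifi213 (-6.24 ± 0.785), Ifi206 (-5.40 ± 0.909) and Rpl29 (-4.63 ± 0.739) belong to families with near-identical copies. The call of Cacna2d1 was lost without any 1 NOD library, and that of Slc15a2 without NOD replicate 1 or 4.

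Genes chosen after their values were seen add detail to these groups. Ly6e, a membrane protein that limits viral entry, was at 141, 187, 106 and 78.3 CPM in NOD and 2236, 1725, 2170 and 1471 CPM in B6 (-3.89 ± 0.27, adjusted p = 1.87e-05). Slamf7, a receptor of the SLAM family, was at 2.37 to 7.94 and 110 to 152 CPM (-4.46 ± 0.415, adjusted p = 8.74e-05). Nes, which encodes the intermediate filament nestin, was at 4.21 to 10.6 and 134 to 202 CPM (-4.49 ± 0.351, adjusted p = 3.22e-05). These groups were far apart. The metal-binding protein gene Mt2 was higher, at 43.2 to 106 CPM in NOD and 2.61 to 9.45 CPM in B6 (4.08 ± 0.566, adjusted p = 0.00161), as was the fatty acid desaturase gene Scd2, at 37.5 to 61.5 and 0.454 to 2.89 CPM (4.84 ± 0.676, adjusted p = 0.00164).

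Markers of other cells were examined because the sort could hold them. The summed level of 17 islet endocrine markers was 1839 to 7329 CPM in NOD and 1122 to 1477 CPM in B6. Ins2 was at 4746, 3007, 1104 and 1327 CPM in NOD and 867, 499, 831 and 542 CPM in B6 (1.89 ± 0.401, adjusted p = 0.0179), and Ins1 and Chgb were called higher as well, with overlapping groups for Ins1. These 3 calls became 0 without NOD replicate 1 or 2. With the islet endocrine and acinar level as a covariate, 73 genes were called (16 higher and 57 lower), all among the 742. The summed endocrine level was higher in every NOD library than in any B6 library, so this fit cannot fully separate strain from that level. Some log2 fold changes moved little under it while their adjusted p rose (Bag3 -1.90, adjusted p = 0.168). Others shrank (Hspa1b -0.98, adjusted p = 0.323). A call lost with this covariate therefore does not say which of these applied. The 12 T cell markers summed to 63.1 to 86.2 CPM in NOD and 36.9 to 81.0 CPM in B6. The 2 that were tested, Cd4 and Lck, did not pass (median log2 fold change 1.45). Of the others, Cd3e, Cd3d, Cd3g, Trac, Trbc1 and Trbc2 had 6, 52, 2, 2, 0 and 0 counts in all NOD libraries together and 86, 1, 0, 1, 0 and 0 in B6. The B cell marker Cd79a had 15 counts in NOD and 27 in B6, while Ighm was at 315 to 462 CPM in NOD and 653 to 948 CPM in B6 (-0.93, adjusted p = 0.0108). Summed levels over 11 conventional dendritic cell markers were 33.2 to 53.2 CPM in NOD and 53.0 to 63.6 CPM in B6, with 0 of 7 tested called in the edgeR fit of 8 libraries, and over 9 endothelial markers 33.4 to 46.0 and 7.77 to 202 CPM, with 0 of 8 called. The T cell, natural killer cell, acinar, duct, stromal, erythroid, neutrophil and plasmacytoid dendritic cell lists had 0 members called in that fit too, and over these 10 lists 4 of 34 tested members had an unadjusted p under 0.05. DESeq2 called 1 conventional and 1 plasmacytoid dendritic cell marker lower, and the fit of 26 libraries, which tested more members, called 2 conventional dendritic cell markers higher and 1 lower, 1 plasmacytoid marker lower and 1 stromal marker lower. Omission of 1 B6 library called 1 marker higher for duct (replicate 3 or 4), natural killer (replicate 2) and stromal cells (replicate 1). Of 6 tested monocyte markers Ace was higher and Nr4a1 lower (33.3%, against 6.04% of all genes). The call of Ace was lost without any 1 NOD library. Of 12 tested candidates from NOD diabetes loci, Fcgr1 and Ifi202b were higher and H2-Ab1 and B2m lower, all described above (33.3%, against 6.04%).

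The same contrast at other ages, each fitted alone, called 906 genes at 2 weeks (6.45% of those tested) and 1651 at 12 weeks (11.6%). Of the calls at 4 weeks 278 were also called at 2 weeks (37.5% of the calls at 4 weeks and 30.7% of those at 2 weeks), all in the same direction. With 12 weeks 290 calls were shared (39.1% and 17.6%), 251 in the same and 39 in the opposite direction. At all 3 ages 161 genes were called in the same direction, 57 higher and 104 lower in NOD. By the largest minimum change these were led by Trim12a, Ifi202b, Spint1, Ifi213, Ccn1, Ifi206, Slc15a2, Zfp979, Tpm3-rs7 and Pianp. Of them Pianp, a ligand of the inhibitory receptor PILR alpha, stood at 114, 137, 118 and 170 CPM in NOD and 3.63, 3.74, 0.630 and 12.0 CPM in B6 at 4 weeks (4.74 ± 0.675, adjusted p = 0.00192), and its log2 fold changes at 2 and 12 weeks were 4.21 and 4.33.

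A test of the strain-by-age interaction called 2 genes between 4 and 2 weeks (0.0121% of 16479, 0.00607% in each direction, with 1698 at an unadjusted p under 0.05). Chaf1a, a subunit of chromatin assembly factor 1, was at 14.1 ± 4.98 CPM in NOD and 20.5 ± 7.46 CPM in B6 at 2 weeks and at 10.2 ± 3.50 and 0.166 ± 0.0947 CPM at 4 weeks (mean ± SD, scaled over all 26 libraries; interaction 6.37, adjusted p = 0.016). Sparc, a matrix-binding glycoprotein, was at 408 ± 33.4 CPM in NOD and 26.5 ± 3.66 CPM in B6 at 2 weeks and at 46.9 ± 14.1 and 43.3 ± 24.8 CPM at 4 weeks (-3.83, adjusted p = 0.00427). Between these ages the B6 mean moved more than the NOD mean for Chaf1a, and the NOD mean more than the B6 mean for Sparc. The count was 176 with all 26 libraries and 1 with the replicate block, and up to 40 when a B6 library was omitted. The call of Chaf1a was lost with the replicate block and without NOD replicate 1 or 2.

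Between 4 and 12 weeks the interaction called 292 genes (1.65% of 17656), 90 with a more positive and 202 with a more negative difference at 4 weeks. Class II presentation held 8 of the negative calls among 17 tested members, against 1.14% of genes called negative. H2-Ab1 was at 3423 ± 469 CPM in NOD and 11274 ± 2131 CPM in B6 at 4 weeks and at 9099 ± 680 and 7390 ± 871 CPM at 12 weeks (interaction -2.00 ± 0.188, adjusted p = 2.74e-06). Cd74 (-2.11 ± 0.179, adjusted p = 1.03e-06), H2-Eb1 (-2.33), H2-DMa (-2.01), H2-Aa (-1.53), H2-DMb1 (-1.18), Ifi30 (-2.51) and Lgmn (-0.95) were the others. At 12 weeks 7 of the 17 genes were higher and 1 lower in NOD (6.21% and 5.4% of all genes tested there), and at 2 weeks 1 was higher and 7 lower (2.92% and 3.53%). In the fit of that age alone, H2-Ab1, H2-Aa and Cd74 differed by 0.29, 0.40 and 0.12 on the log2 scale at 12 weeks (adjusted p = 0.216, 0.108 and 0.689). H2-Ob was lower in NOD at each age, and its interaction did not pass (-1.04, adjusted p = 0.361).

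Other genes followed their own course. Ly6e was at 141 ± 53.3 CPM in NOD and 1999 ± 384 CPM in B6 at 4 weeks and at 764 ± 108 and 1084 ± 91.0 CPM at 12 weeks (interaction -3.30, adjusted p = 1.89e-06), and Slamf7 went from 6.38 ± 2.70 and 135 ± 18.9 CPM to 66.3 ± 14.9 and 113 ± 23.6 CPM (-3.61, adjusted p = 0.000103). Cd36 was at 50.1 ± 14.5 CPM in NOD and 130 ± 36.8 CPM in B6 at 4 weeks and at 6.66 ± 1.55 and 114 ± 30.5 CPM at 12 weeks (2.73, adjusted p = 0.000999). Fcer1g was lower in NOD at both ages and by more at 4 weeks (-1.42, adjusted p = 0.000381). Apoe and Hspa8 were lower at 2, 4 and 12 weeks, and their interactions with 12 weeks did not pass (0.13 and -0.18, adjusted p = 0.838 and 0.825). Of the heat shock list 10 genes were lower at 12 weeks and 4 at 2 weeks, and of the immediate early list 7 and 9.

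For several of the largest rises, B6 levels at 4 weeks were below those of B6 at other ages. Plk4 was at 7.46 ± 0.734 CPM in B6 at 2 weeks, 0.0513 ± 0.103 CPM at 4 weeks and 4.68 ± 0.973 CPM at 12 weeks, and at 3.92 to 6.57 CPM in the NOD group means (interaction with 12 weeks 6.86, adjusted p = 0.0272). Gas8 had 190, 0 and 153 counts in the B6 libraries together at 2, 4 and 12 weeks (interaction with 12 weeks 9.05, adjusted p = 0.0117). Lgi4 was at 0.0607 ± 0.0703 CPM in B6 at 4 weeks and 6.57 ± 5.87 CPM at 12 weeks. These genes have low levels. Over all levels, the B6 libraries at 4 weeks held fewer genes than those of any other group (14152 to 17839 genes with a count, against at least 18974). The part of this in the rises was not tested.

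**Figure D5:**
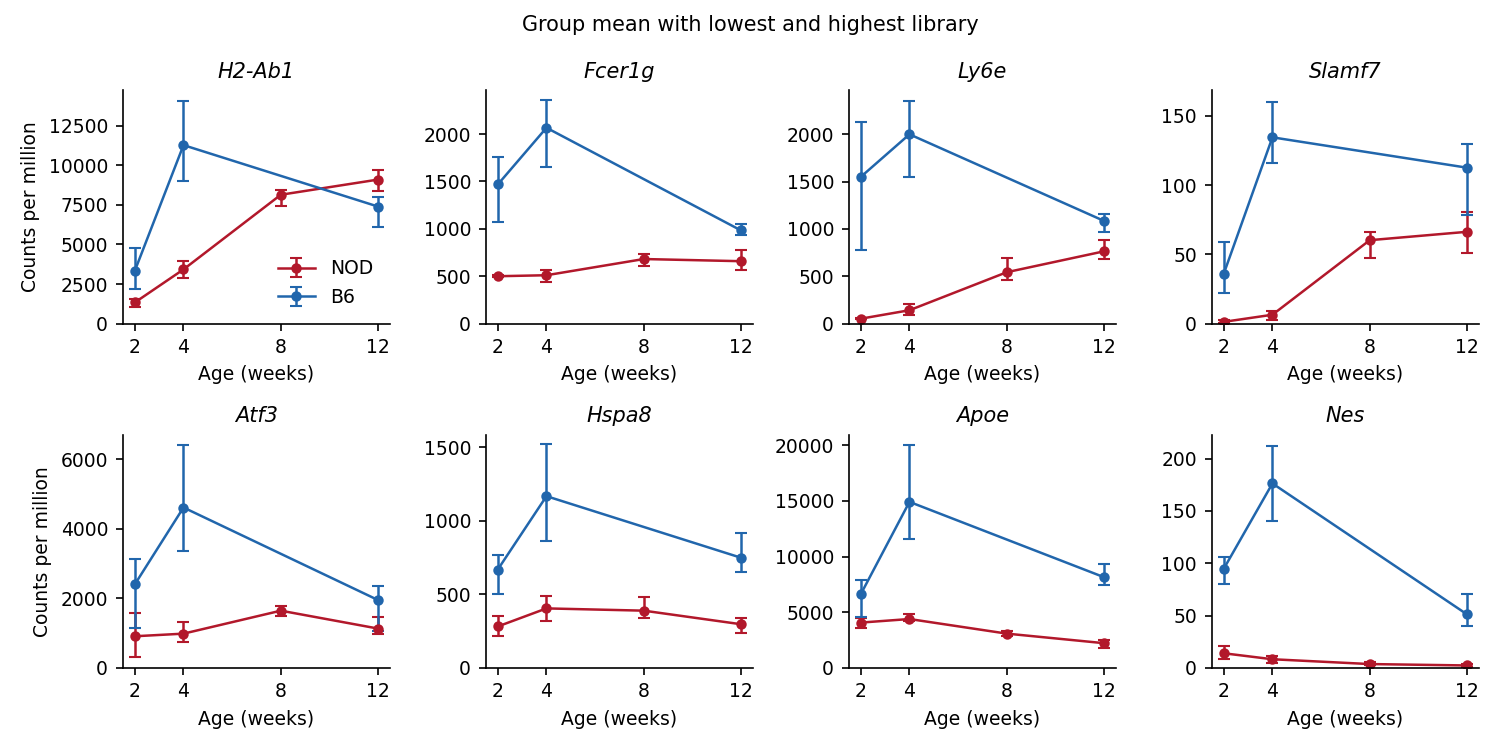
Mean level in CPM (scaled over all 26 libraries) with the lowest and highest library by age for 8 genes, NOD at 2, 4, 8 and 12 weeks in red and B6 at 2, 4 and 12 weeks in blue, axes from 0. For H2-Ab1 the NOD mean runs from 3423 CPM at 4 weeks to 9099 CPM at 12 weeks, and the B6 mean from 11274 to 7390 CPM.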

How the data were processed

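The values used were raw read counts per gene, deposited by the authors as 1 table of 26 libraries and taken as not normalized. The submitters' processing notes name STAR, HTSeq, DESeq2, mm10 and GRCm38, and versions, roles and the strand setting of the counting are not given in the sources used here, so overlapping and antisense genes cannot be separated. Of 41092 lines, 534 repeats of 286 gene IDs were removed. GENCODE M21 (GRCm38) gave symbols and coordinates for 40254 of 40558 genes, and promoters from RefSeq (GRCm38.p6).

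The members and gene lists were chosen with earlier results of these data known. Analyses ran in R 4.3.3. Genes were kept with filterByExpr (minimum count 10, minimum total 15) and scaled by TMM, and the 8 libraries at 4 weeks were fitted alone with 1 mean per strain in edgeR 4.0.16 (quasi-likelihood, robust), with Benjamini-Hochberg adjustment over all genes tested. The SE is the log2 fold change divided by the square root of F. Interactions were fitted on the 4 groups of 2 ages. The test was also run on simulated counts with known fold changes, and no result given here rests on that run. Total counts per library were 9752680 to 12725828, so a count of 0 lies below 3 counts, or 0.200 to 0.362 CPM. Medians of lists were computed also with members at 0 counts set at that bound, which changed none printed here.

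Named were the 12 largest rises and falls called in both this fit and that of 26 libraries with at least 5 CPM in the higher group and no overlap, up to 6 members a list by adjusted p, all class II members, genes called at 3 ages and genes with interactions; others are said to be chosen after their values were seen. Alternatives were all 26 libraries, RLE and upper-quartile scaling, loess scaling (added after seeing the data), no filter, 5 CPM in 3 libraries, DESeq2 1.42.0, limma 3.58.1 voom with sample or strain weights, the replicate block, thinned counts, an islet covariate, an absolute log2 fold change of at least 1 and omission of each library. Replicate numbers did not pair the libraries (correlation of same-numbered deviations 0.0118, -0.0129, -0.0669 and -0.0218).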

Additional observations from a re-analysis of the deposited data

Results flagged for a closer look

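Of 128 groups of 4 libraries examined, 11 held 1 library far from the other 3. The rate of about 1 in 20 by chance holds for continuous values. It does not hold for genes at 0 in 3 libraries, where any count is flagged, so the 11 cannot be set against it. NOD replicate 4 had a mean log2 CPM of 4.56 over the interferon-gamma response genes (5.02 to 5.06 in the other NOD libraries) and of 5.93 over the Fc and scavenger receptor genes (6.06 to 6.08), and 8.63 CPM of Ccn1 (2.00 to 2.18). NOD replicate 4 was also the NOD library with the fewest genes with a count, at 18974. B6 replicate 2 had a mean log2 CPM of 4.36 over the tested natural killer cell markers (-2.16 to -1.16 in the other B6 libraries) and 0.362 CPM of Ifi202b (0.0975 to 0.113). The remaining libraries apart from their group held 1 or 2 counts of a gene at 0 in the others: B6 replicate 3 had 0.105 CPM of Ccr6, B6 replicate 1 had 0.113 CPM of St6galnac1, B6 replicate 2 had 0.121 CPM of H2-Q2, and B6 replicate 4 had 0.0975 CPM of Spsb3, 0.195 CPM of Abcd4 and 0.195 CPM of Plk4.

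The strain difference differed between 4 and 12 weeks, by the interaction test on the log2 scale (edgeR, adjusted p), for the 16 genes given here and for Ly6e, Slamf7, Cd36 and Fcer1g given with the ages, among 292 genes in all. In class II presentation it was more negative at 4 weeks for Cd74 (-2.11), H2-Eb1 (-2.33), H2-Ab1 (-2.00), H2-DMa (-2.01), H2-Aa (-1.53), H2-DMb1 (-1.18), Ifi30 (-2.51) and Lgmn (-0.95), with adjusted p from 1.03e-06 to 0.0091. It was also more negative for Ccn1 (-2.70, adjusted p = 0.0341) and Vill (-5.74, adjusted p = 0.0336). It was more positive for Gas8 (9.05), Colec12 (8.09), Lgi4 (6.95), Plk4 (6.86), Chaf1a (6.35) and Ccr6 (5.91), with adjusted p from 0.00816 to 0.0403. Between 4 and 2 weeks it differed for Chaf1a (6.37) and Sparc (-3.83).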

How the results depend on the processing

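Against 742 genes called at 4 weeks, the count was 3450 in the fit of all 26 libraries, 448 without a filter, 1543 with DESeq2, 73 with the islet covariate and 294 with loess scaling. It ran from 200 to 1133 when single libraries were omitted, 200 to 293 without a NOD and 978 to 1133 without a B6 library. With the replicate block it was 522, of which 472 were shared, although the numbers did not pair the libraries. The interaction between 4 and 2 weeks, with 2 calls, gave 176 with all 26 libraries, 7 without a filter, 1 with the replicate block and 1 to 40 with single libraries omitted. That between 4 and 12 weeks, with 292 calls, gave 874, 714, 192 and 166 to 656 in the same order. The causes were not tested. The strains' difference in genes with a count, 4930.25, was 3370.5 for genes with at least 5 counts and 4560 after thinning. Of 134 named genes that were called, 30 were called in all 21 alternatives, among them Cd74, H2-Ab1, H2-Eb1, Fcer1g, Fcgr3, Apoe, Egr1, Atf3 and Zfp36. Of the others 99 were lost with the islet covariate, 59 with loess scaling and 50 to 63 without a NOD library. Signs turned with loess scaling for Xist (0.12), Gm42418 (0.77), Cxcl16 (0.078), Csf1r (0.13), Lgmn (0.20) and Ctsb (0.043), and for 3 uncalled genes with single libraries omitted (Krt7 from -2.63 to 4.57, Klrb1c from -1.09 to 5.70 and Cspg4 from -0.69 to 5.86).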

Other observations

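Genes called at 4 weeks were uneven along the genome, described here by windows of 1 Mb (GRCm38) with no test. On chromosome 17 from 34000001 to 35000000, which holds the class II region, 10 of 44 tested genes were called: H2-Oa, Brd2, Psmb8, H2-Aa, H2-DMa, H2-Ob, H2-Eb1, H2-Ab1, Hspa1b and Hspa1a. Of these only Psmb8 is named above as higher in NOD. The stress genes Hspa1a and Hspa1b lie in the same window as the class II genes. On chromosome 1 from 171000001 to 172000000, 8 of 30 were called, namely the SLAM family genes Ly9, Cd84 and Slamf7, the Fc receptor genes Fcer1g, Fcgr3 and Fcgr4, and Itln1 and F11r. From 173000001 to 174000000 on the same chromosome, 5 of 10 were called, all of the interferon-inducible Ifi200 family (Ifi202b, Ifi206, Ifi207, Ifi209 and Ifi213), whose members have near-identical stretches. Across all tested genes 6.04% were called.

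Pseudogenes made up a larger part of the higher than of the lower calls. Of 373 tested pseudogenes 42 were higher (11.3%) and 5 lower in NOD, and of 11130 protein-coding genes 194 were higher and 450 lower. As given above, the split of calls moved with expression level, and the part of level in the pseudogene counts was not tested.

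A single gene took a varying share of the libraries. Plekhh2, chosen after its values were seen, was at 37643, 1079, 49510 and 117 CPM in NOD and 194, 77460, 96.4 and 40293 CPM in B6, so that 2 libraries of each strain were far above the other 2. It did not differ by the test (adjusted p = 0.957).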
